A study of Mus musculus with 6 samples.

Results

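The Ly6/uPAR surface protein family was examined in thymus of 10-day-old RUNX2/MYC mice, set against thymus of wild-type (WT) mice of the same age. The members were set by name: Ly6a, Ly6c1, Ly6d, Ly6e, Ly6k, Ly6g6c, Plaur, Lypd8, Lypd3 and Thy1 were chosen from known results of this same comparison, so their differences, with the intervals and calls of the fit over all probe sets, are given as a description and not as a test of the members. Of the 10 members, 9 were given a probe set of their own among the 19939 genes (35556 probe sets) measured this way, and Ly6c1 was read only by 2 probe sets that it shares with its neighbour Ly6c2. Each gene is given by the brightest probe set that the annotation pairs with that gene alone, and 8 of the measured members had a single such probe set. The exception was Ly6a, whose probe set 10429564 is not named in the annotation used here. It was identified only through its number, gene symbol and transcript accession in a supplementary table of the study. Whether its probes read Ly6a alone was not checked. The RUNX2/MYC group held 3 arrays of mice with genotype CD2-Myc/CD2-Runx2 on a C57BL6/CBA background, and the WT group held 3 arrays of C57/CBA mice without either transgene. Control elements of CD2, a T cell surface gene, drive both transgenes in T cells, and per the methods controls were matched as littermates. At this age the transgenic thymus is known to hold an expanded premalignant, polyclonal T cell population beside cells of normal phenotype. RNA came from whole thymus and was read on Affymetrix mouse gene arrays, with each array labelled as a separate biological replicate. C57BL/6 and CBA mice carry different Ly6 haplotypes, and the haplotype of each animal is not given in the sources used here.

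Ly6/uPAR proteins share a small domain folded into 3 loops that disulfide bonds hold together, and most of them are tied to the outer face of the cell membrane by a glycosylphosphatidylinositol (GPI) anchor. Several mouse Ly6 proteins are classical surface markers of blood cells and lymphocytes, and interferons are known to raise Ly6a, Ly6c1 and Ly6e in mouse lymphocytes. Plaur carries the domain in several copies and is the receptor of urokinase, the protease that turns plasminogen into plasmin. Thy1 is GPI-anchored too, but it belongs by fold to the immunoglobulin superfamily and not to the Ly6/uPAR family, and it is kept here only because the list named it. All values are deposited log2 signals of the arrays, and the level of one probe set says nothing about the level of another. Whole-organ RNA cannot tell fewer cells of a type from less RNA per cell.

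The transgene separated the groups, with Runx2 at a log2 signal of 11.82 ± 0.12 on the RUNX2/MYC arrays and 7.94 ± 0.0026 on the WT arrays (SD, n = 3 each). Array medians ran from 7.31 to 7.49. In relative array weights, where a low weight marks an array far from the others of its group, RUNX2/MYC replicate 1 (0.418) and WT replicate 3 (0.439) had the lowest values and WT replicate 2 (3.26) the highest. Over all 35556 probe sets, limma (a linear model of each probe set with a moderated error, Benjamini-Hochberg adjustment) placed 1.68% higher and 0.127% lower in RUNX2/MYC at an adjusted p under 0.05. At an unadjusted p under 0.05 the shares were 12.0% higher and 9.27% lower, and the per-probe-set test named in the study's methods, with q values, called 3.41% higher and 0.695% lower. The 3 RUNX2/MYC arrays lay all above the 3 WT arrays for 14.3% of probe sets, and all below them for 10.1%. Differences also varied with signal: when probe sets were ranked by mean signal into 10 equal bins, the median log2 fold change was between -0.12 and -0.16 in bins 2 to 5 and between 0.11 and 0.13 in bins 8 to 10. With 3 arrays against 3, an exact permutation test of a single value cannot give a p below 0.1.

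Plaur was higher in RUNX2/MYC thymus, Ly6a and Lypd8 were lower, and the groups overlapped for the other 6 measured members. The limma threshold was passed by 1 of 9 members in the higher direction (1.68% of all probe sets) and by 2 of 9 in the lower direction (0.127% of all probe sets), and the same 3 genes were those whose groups did not overlap. Since the list was drawn up with this comparison known, nothing is read from these counts against the background shares. The sizes were similar, with the linear signal 1.90-fold higher in RUNX2/MYC for Plaur, 1.82-fold lower for Ly6a and 1.95-fold lower for Lypd8. Over the 9 members, 2 log2 fold changes were positive and 7 negative, with a median of -0.045, beside a median of -0.051 and a negative share of 57.7% over all probe sets.

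**Figure D1:**
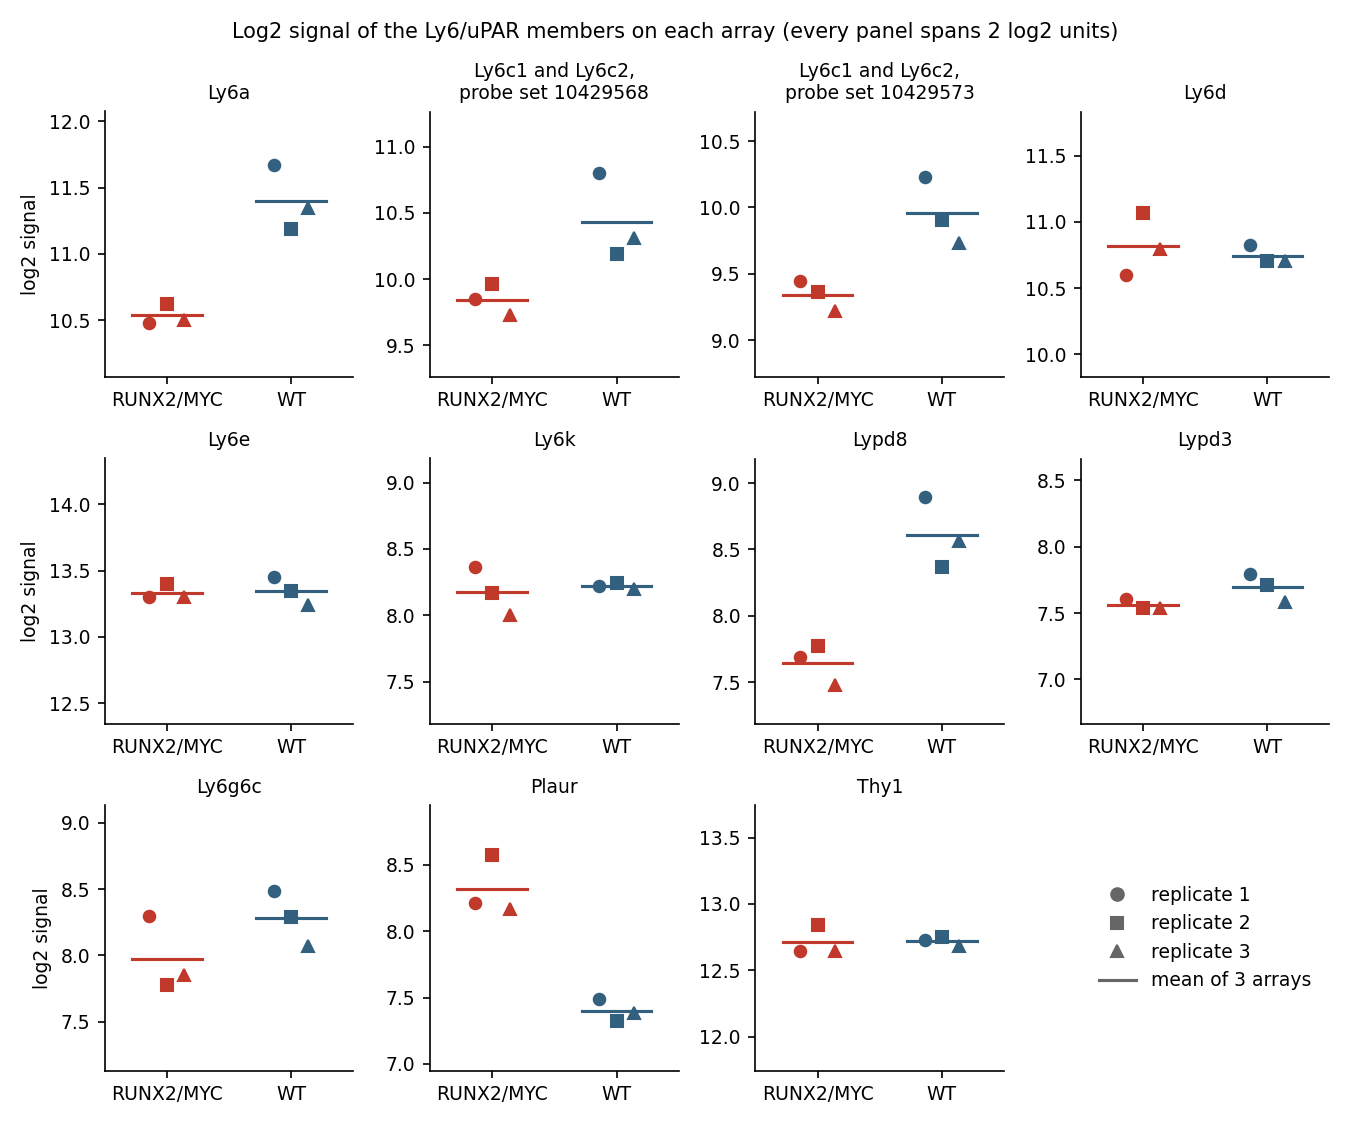
Log2 signal (y axis, 2 log2 units in every panel) of the 9 measured members and of the 2 probe sets shared by Ly6c1 and Ly6c2, with RUNX2/MYC arrays on the left and WT arrays on the right of each panel. Each point is 1 array, its shape gives the replicate number, and the bar is the mean of 3 arrays. Points of the groups are fully separated for Ly6a, Plaur, Lypd8 and both shared probe sets.

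Plaur, the urokinase receptor, is a GPI-anchored protein of myeloid cells, activated T cells and migrating cells that places urokinase at the cell surface. Its start lies on the forward strand of chromosome 7, and the RefSeq window from 250 bases before to 50 bases after the start (GRCm38.p6, chr7:24462233-24462532) is shown because Plaur was the only member past the threshold in the higher direction. It is printed 5′ to 3′ in lower case throughout, since none of the motifs searched (given with the Ly6 windows of chromosome 15, where capitals mark a match) lies in it.
Plaur: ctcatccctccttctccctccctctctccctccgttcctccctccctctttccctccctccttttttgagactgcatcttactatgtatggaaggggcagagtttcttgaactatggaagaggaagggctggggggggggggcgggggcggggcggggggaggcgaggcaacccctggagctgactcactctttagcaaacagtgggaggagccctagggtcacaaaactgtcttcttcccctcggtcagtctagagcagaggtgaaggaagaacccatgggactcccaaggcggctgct

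Plaur (probe set 10550906) had log2 signals of 8.21, 8.58 and 8.17 on RUNX2/MYC replicates 1 to 3. On WT replicates 1 to 3 it had 7.49, 7.32 and 7.38. Every RUNX2/MYC array was above every WT array, with replicate 2 the highest, and the gap between the groups exceeded the spread within each. The means were 8.32 ± 0.22 in RUNX2/MYC and 7.40 ± 0.084 in WT (SD, n = 3 each), a log2 fold change of 0.92 (standard error 0.13, 95% confidence interval 0.62 to 1.23). Its signal was above the median of the array on 3 of the 6 arrays, and in its signal bin the median log2 fold change over all probe sets was -0.099. Macrophage, dendritic cell and neutrophil markers mark other cells known to carry Plaur. Their log2 fold change was negative for 12 of 14 measured genes, beside 57.7% of all probe sets. Limma called 0 of the 14, and 9 of them had a signal above the array median on at least 3 arrays. Mean log2 signals of these markers were 7.88, 7.92 and 7.70 on RUNX2/MYC replicates 1 to 3 and 8.13, 7.89 and 7.91 on WT replicates 1 to 3. The part of these myeloid markers in the Plaur values was not tested. Adipocyte markers were highest on RUNX2/MYC replicate 2 for 7 of 9 genes (mean log2 signal 8.36, between 6.91 and 7.32 on the other 5), where Plaur was also highest, and their part in the Plaur values was not tested. Plaur passed the threshold when RUNX2/MYC replicate 1 (0.98) or WT replicate 3 (0.92) was dropped, and lost the call when replicate 2 (0.79) or 3 (1.00) of RUNX2/MYC, or replicate 1 (0.97) or 2 (0.88) of WT, was left out. In those last 4 fits only 3 or 4 of all probe sets were called higher and 0 lower.

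Ly6a encodes Sca-1, a GPI-anchored marker of mouse hematopoietic stem cells that is also carried by lymphocytes and endothelium. Its log2 signals on RUNX2/MYC replicates 1 to 3 were 10.48, 10.63 and 10.50. WT replicates 1 to 3 had 11.67, 11.19 and 11.34. The RUNX2/MYC arrays lay close together and all below the WT arrays, of which replicate 1 was the highest. Means were 10.54 ± 0.078 in RUNX2/MYC and 11.40 ± 0.25 in WT (SD, n = 3 each), and the log2 fold change was -0.86 (standard error 0.14, 95% confidence interval -1.19 to -0.54). Probe sets of the same signal bin had a median log2 fold change of 0.11. Ly6a lost its call when replicate 2 (-0.91) or 3 (-0.85) of RUNX2/MYC, or replicate 1 (-0.73), 2 (-0.97) or 3 (-0.89) of WT, was left out, and kept it without RUNX2/MYC replicate 1 (-0.84). Endothelial markers, of another cell type that carries Ly6a, had mean log2 signals of 7.78, 7.94 and 7.85 in RUNX2/MYC and 7.97, 7.95 and 7.77 in WT over 12 genes, and their part in the Ly6a values was not tested. Gpihbp1 is in this marker list and also among the further family genes.

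Ly6c1 and Ly6c2, neighbouring genes on chromosome 15, encode the Ly6C antigens of monocytes and of some T cells. Probe set 10429568 pairs with both genes and had log2 signals of 9.85, 9.96 and 9.73 on RUNX2/MYC replicates 1 to 3, against 10.80, 10.19 and 10.31 on WT replicates 1 to 3. Probe set 10429573, also paired with both, had 9.44, 9.36 and 9.22 in RUNX2/MYC, against 10.23, 9.91 and 9.73 in WT. On both, all RUNX2/MYC arrays were below all WT arrays, and WT replicate 1 was the highest, as for Ly6a. The log2 fold changes were -0.59 (standard error 0.17) and -0.62 (standard error 0.14), and neither passed the limma threshold. These values cannot be assigned to Ly6c1 or to Ly6c2 alone, so Ly6c1 has no value of its own. Myeloid markers, named above, were also highest on WT replicate 1 for 10 of 14 genes. Of these 14 genes, 9 had a signal above the array median on at least 3 arrays, and WT replicate 1 had the highest array median (7.49). The part of these markers in the WT level of the Ly6C probe sets was not tested.

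RefSeq start windows of 5 of the 10 members were found, those of Ly6c1, Ly6g6c, Plaur, Lypd8 and Lypd3. The Ly6c1 and Ly6c2 windows are shown with that of Ly6a2, the next gene along the chromosome, because the array reads the first 2 together and the third apart. All are on the reverse strand (GRCm38.p6): Ly6c1 at chr15:75048788-75049087, Ly6c2 at chr15:75111922-75112221 and Ly6a2 at chr15:75135079-75135378. Capitals mark a match to TGTGGT or TGCGGT (core motifs of RUNX factors), CACGTG (an E-box that MYC can bind) or TTCNNNGAA (a STAT motif), each searched on both strands, and none of these motifs overlaps another in the windows shown.
Ly6c1: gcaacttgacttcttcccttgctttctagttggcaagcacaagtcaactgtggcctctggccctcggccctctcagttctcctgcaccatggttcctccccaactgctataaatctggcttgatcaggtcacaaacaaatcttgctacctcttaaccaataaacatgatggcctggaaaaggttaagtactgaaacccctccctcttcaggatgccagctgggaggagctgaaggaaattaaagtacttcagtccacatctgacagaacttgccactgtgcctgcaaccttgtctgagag
Ly6c2: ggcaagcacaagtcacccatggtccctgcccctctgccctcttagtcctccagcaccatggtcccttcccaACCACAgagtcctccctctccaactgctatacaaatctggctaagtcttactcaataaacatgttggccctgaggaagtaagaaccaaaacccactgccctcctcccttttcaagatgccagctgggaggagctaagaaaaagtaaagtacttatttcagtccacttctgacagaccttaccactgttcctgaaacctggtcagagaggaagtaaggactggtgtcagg
Ly6a2: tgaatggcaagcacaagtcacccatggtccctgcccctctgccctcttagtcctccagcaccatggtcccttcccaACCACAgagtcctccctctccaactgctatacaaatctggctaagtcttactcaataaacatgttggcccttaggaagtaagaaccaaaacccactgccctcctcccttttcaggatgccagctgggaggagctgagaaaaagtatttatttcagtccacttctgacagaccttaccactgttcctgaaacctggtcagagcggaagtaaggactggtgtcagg

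The Ly6c2 and Ly6a2 windows were 98.3% identical over 295 aligned bases, and both hold ACCACA, which is TGTGGT read on the other strand. The Ly6c1 window was 78.2% identical to that of Ly6c2 over 266 aligned bases and holds no match. Ly6a2, whose own probe set 10429580 is separate, had log2 signals of 6.72, 6.44 and 6.41 in RUNX2/MYC and 6.78, 6.42 and 6.36 in WT, a log2 fold change of 0.0029 (standard error 0.15). Its groups overlapped, while those of the shared Ly6c1 and Ly6c2 probe sets did not. The Ly6a2 probe set was below the array median on every array, so little can be read from its lack of difference. Of 32851 windows of all genes, 16.8% hold TGTGGT, 6.45% TGCGGT, 7.15% CACGTG and 8.30% TTCNNNGAA. Of 40 windows of family genes, 10 hold TGTGGT, 1 holds TGCGGT, 2 hold CACGTG and 1 holds TTCNNNGAA, and no motif was found in any window of the 5 members.

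Lypd8 is best known from mouse colon, where the secreted, heavily glycosylated protein binds flagellated bacteria and keeps them from the epithelium. Its first window on the forward strand of chromosome 11 (RefSeq, GRCm38.p6, chr11:58378782-58379081) is shown because Lypd8 was one of the 3 members past the threshold, and it holds none of the motifs.
Lypd8: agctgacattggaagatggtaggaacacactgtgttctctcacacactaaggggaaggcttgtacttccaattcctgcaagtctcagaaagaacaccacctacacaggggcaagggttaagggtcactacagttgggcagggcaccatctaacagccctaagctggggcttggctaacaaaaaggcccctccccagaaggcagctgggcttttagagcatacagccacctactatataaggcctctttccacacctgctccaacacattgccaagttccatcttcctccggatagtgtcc

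Lypd8 (probe set 10376366) had log2 signals of 7.69, 7.77 and 7.48 on RUNX2/MYC replicates 1 to 3. It had 8.89, 8.37 and 8.57 on WT replicates 1 to 3. The lowest WT array was above the highest RUNX2/MYC array, and WT replicate 1 was again the highest of all. Group means were 7.65 ± 0.15 in RUNX2/MYC and 8.61 ± 0.26 in WT (SD, n = 3 each), a log2 fold change of -0.96 (standard error 0.15, 95% confidence interval -1.33 to -0.60). Lypd9, the other family gene measured on chromosome 11, had a log2 fold change of -0.21. Thymic epithelial markers lay on the same side, with a negative log2 fold change for 13 of 13 genes, 0 of them past the limma threshold. All RUNX2/MYC arrays were below all WT arrays for 9 of the 13 (10.1% of all probe sets). An unadjusted p under 0.05 in the lower direction was reached by 7 (9.27% of all probe sets). Mean log2 signals of the list were 9.47, 9.54 and 9.60 on RUNX2/MYC replicates 1 to 3 and 9.80, 9.80 and 9.91 on WT replicates 1 to 3. Markers of keratinising epithelium were highest on WT replicate 1 for 11 of 11 genes, with means of 7.08, 6.78 and 6.93 in RUNX2/MYC and 7.31, 7.11 and 7.03 in WT. Only 4 of these 11 genes had a signal above the array median on at least 3 arrays, and WT replicate 1 had the highest array median (7.49). The part of either marker list in the Lypd8 values was not tested. Lypd8 kept its call without RUNX2/MYC replicate 1 (-0.98) and lost it when replicate 2 (-1.03) or 3 (-0.88) of RUNX2/MYC, or replicate 1 (-0.82), 2 (-1.08) or 3 (-0.98) of WT, was left out. The number of all probe sets called lower in each of these fits is given with Ly6a.

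Ly6e and Thy1, the members that mark thymocytes most widely, overlapped between the groups. Ly6e, also called thymic shared antigen 1, is a surface protein of immature mouse thymocytes. Its log2 signals were 13.30, 13.40 and 13.30 in RUNX2/MYC and 13.45, 13.35 and 13.24 in WT. The WT values enclosed those of RUNX2/MYC, and the log2 fold change was -0.013 (standard error 0.092, 95% confidence interval -0.23 to 0.21). Thy1 (CD90), a surface marker of mouse T cells, had 12.64, 12.84 and 12.65 in RUNX2/MYC and 12.73, 12.75 and 12.68 in WT. Here the RUNX2/MYC arrays enclosed the WT arrays, and the log2 fold change was -0.0096 (standard error 0.092, 95% confidence interval -0.23 to 0.21). Differences inside these intervals could not be told from 0 with 3 arrays a group. The sign of both genes turned with the scaling of the arrays, between -0.11 and 0.071 for Ly6e and between -0.11 and 0.074 for Thy1 over the settings tried, so no direction is given. Thymocyte markers had mean log2 signals of 11.25, 11.58 and 11.44 in RUNX2/MYC and 11.64, 11.53 and 11.63 in WT over 12 genes, of which 4 had a positive and 8 a negative log2 fold change.

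Ly6d, a surface protein that in mouse marks lymphoid progenitors turning to the B lineage and is also carried by keratinocytes, had log2 signals of 10.60, 11.06 and 10.80 in RUNX2/MYC. In WT it had 10.83, 10.70 and 10.71. The RUNX2/MYC arrays spread on both sides of the WT arrays, and the log2 fold change was 0.076 (standard error 0.13, 95% confidence interval -0.23 to 0.39), with a sign that turned with the scaling. Ly6k, a protein of mouse germ cells needed for sperm function, had 8.36, 8.16 and 8.0 in RUNX2/MYC and 8.22, 8.24 and 8.20 in WT. Its WT arrays lay close together and inside the range of the RUNX2/MYC arrays, and the log2 fold change of -0.045 (standard error 0.11, 95% confidence interval -0.31 to 0.22) also changed sign between scalings.

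Ly6g6c and Lypd3 were lower on average in RUNX2/MYC without separation of the groups. Ly6g6c, a GPI-anchored member encoded in the major histocompatibility complex on chromosome 17, had log2 signals of 8.29, 7.77 and 7.85 in RUNX2/MYC and 8.49, 8.29 and 8.07 in WT. RUNX2/MYC replicate 1 reached the level of WT replicate 2, and the log2 fold change was -0.31 (standard error 0.17, 95% confidence interval -0.71 to 0.094). Lypd3 (C4.4A), the closest structural relative of Plaur and a surface protein of squamous epithelium, had 7.61, 7.54 and 7.54 in RUNX2/MYC and 7.79, 7.71 and 7.58 in WT. WT replicate 3 lay just below RUNX2/MYC replicate 1, and the log2 fold change was -0.14 (standard error 0.091, 95% confidence interval -0.35 to 0.080).

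Arrays differed across members as a set. All 9 measured members were above their WT mean on WT replicate 1, and 0 of 9 were above the mean of their group on WT replicate 3 or on RUNX2/MYC replicate 3. On the other arrays the number above the group mean was 4 for RUNX2/MYC replicate 1, 6 for RUNX2/MYC replicate 2 and 5 for WT replicate 2. The median over all probe sets was also highest on WT replicate 1 (7.49) and, within WT, lowest on replicate 3 (7.41). On RUNX2/MYC replicate 3 (7.37) it was between those of the others of its group. The share of all probe sets above the group mean was not computed for each array, so these counts are not read as a trait of the members.

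By pattern over the 6 arrays, the genes most like Ly6a were Rarb (Pearson r = 0.999), Dmwd (0.998) and Bcl11a (0.994), with log2 fold changes of -0.15, -0.23 and -0.34. Plaur was most closely followed by Nup37 (0.999), Cox5a (0.999) and Gpd1l (0.998), whose log2 fold changes were 0.39, 0.30 and 0.77. For Ly6e the nearest were Pcbp2 (0.989), 9530068E07Rik (0.988) and Ppp2r1a (0.986), whose log2 fold changes were -0.0039, -0.0023 and -0.027. These correlations are descriptions over 6 arrays in 2 groups and share the group difference and the arrays. An r above 0.9 was reached by 7.94% of 19938 genes with Plaur, by 1.56% with Ly6a and by 0.431% with Ly6e.

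Beyond the members, 36 of 41 further Ly6/uPAR family genes were measured on a probe set of their own, and limma called 0 higher and 0 lower, while an unadjusted p under 0.05 was reached by 0 in the higher and 3 in the lower direction (12.0% and 9.27% of all probe sets), and the methods' test with q values also called 0. Of these, 4 had a positive and 32 a negative log2 fold change, around a median of -0.17. Only 13 of the 36 had a signal above the array median on at least 3 arrays, and dim probe sets in general had negative medians, as given for the signal bins. Lypd1 (Lynx2), a GPI-anchored protein that binds nicotinic acetylcholine receptors, had the largest difference, with log2 signals of 9.08, 9.32 and 9.24 in RUNX2/MYC and 10.02, 9.79 and 10.49 in WT. Its groups did not overlap, and the log2 fold change was -0.88 (standard error 0.18, limma adjusted p = 0.0677). Of its 3 RefSeq windows, the one on the reverse strand of chromosome 1 (GRCm38.p6, chr1:125912165-125912464) is shown because it alone among those printed holds both a RUNX core motif, read as ACCACA, and the E-box CACGTG, in capitals.
Lypd1: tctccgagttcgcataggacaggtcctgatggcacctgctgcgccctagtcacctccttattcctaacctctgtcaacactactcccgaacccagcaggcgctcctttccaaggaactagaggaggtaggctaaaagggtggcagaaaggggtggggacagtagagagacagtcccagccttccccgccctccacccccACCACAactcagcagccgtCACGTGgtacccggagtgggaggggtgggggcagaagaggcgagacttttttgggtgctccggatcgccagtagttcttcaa

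Ly6g, a neutrophil antigen of chromosome 15, was next, with log2 signals of 7.90, 7.41 and 7.24 in RUNX2/MYC and 8.13, 7.87 and 8.01 in WT. RUNX2/MYC replicate 1 lay above WT replicate 2, and the log2 fold change was -0.48 (standard error 0.18, limma adjusted p = 0.199). By position, 18 family genes measured on chromosome 15 had a median log2 fold change of -0.12, with 15 negative, and the genes on either side of Ly6a and the Ly6c pair in the gene order of GRCm38.p6 had values near 0. Ly6i, next to Ly6a, had a log2 fold change of 0.0061 and Ly6a2, beyond the Ly6c pair, 0.0029, against -0.86 for Ly6a itself. On chromosome 7, where 9 of 10 family genes were negative, the neighbours of Plaur were Lypd5 (-0.22) and Pinlyp (-0.18), and Plaur alone was positive. These neighbours were named for their position after their values were seen, and 0 of them passed the threshold. Ly6a and Plaur were chosen with this comparison known, so their distance from their neighbours is not read as a result. The signal bins of Lypd5 and Pinlyp had median log2 fold changes of -0.099 and -0.15. Ly6a2 and Pinlyp were below the array median on every array, so little can be read from their values.

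**Figure D2:**
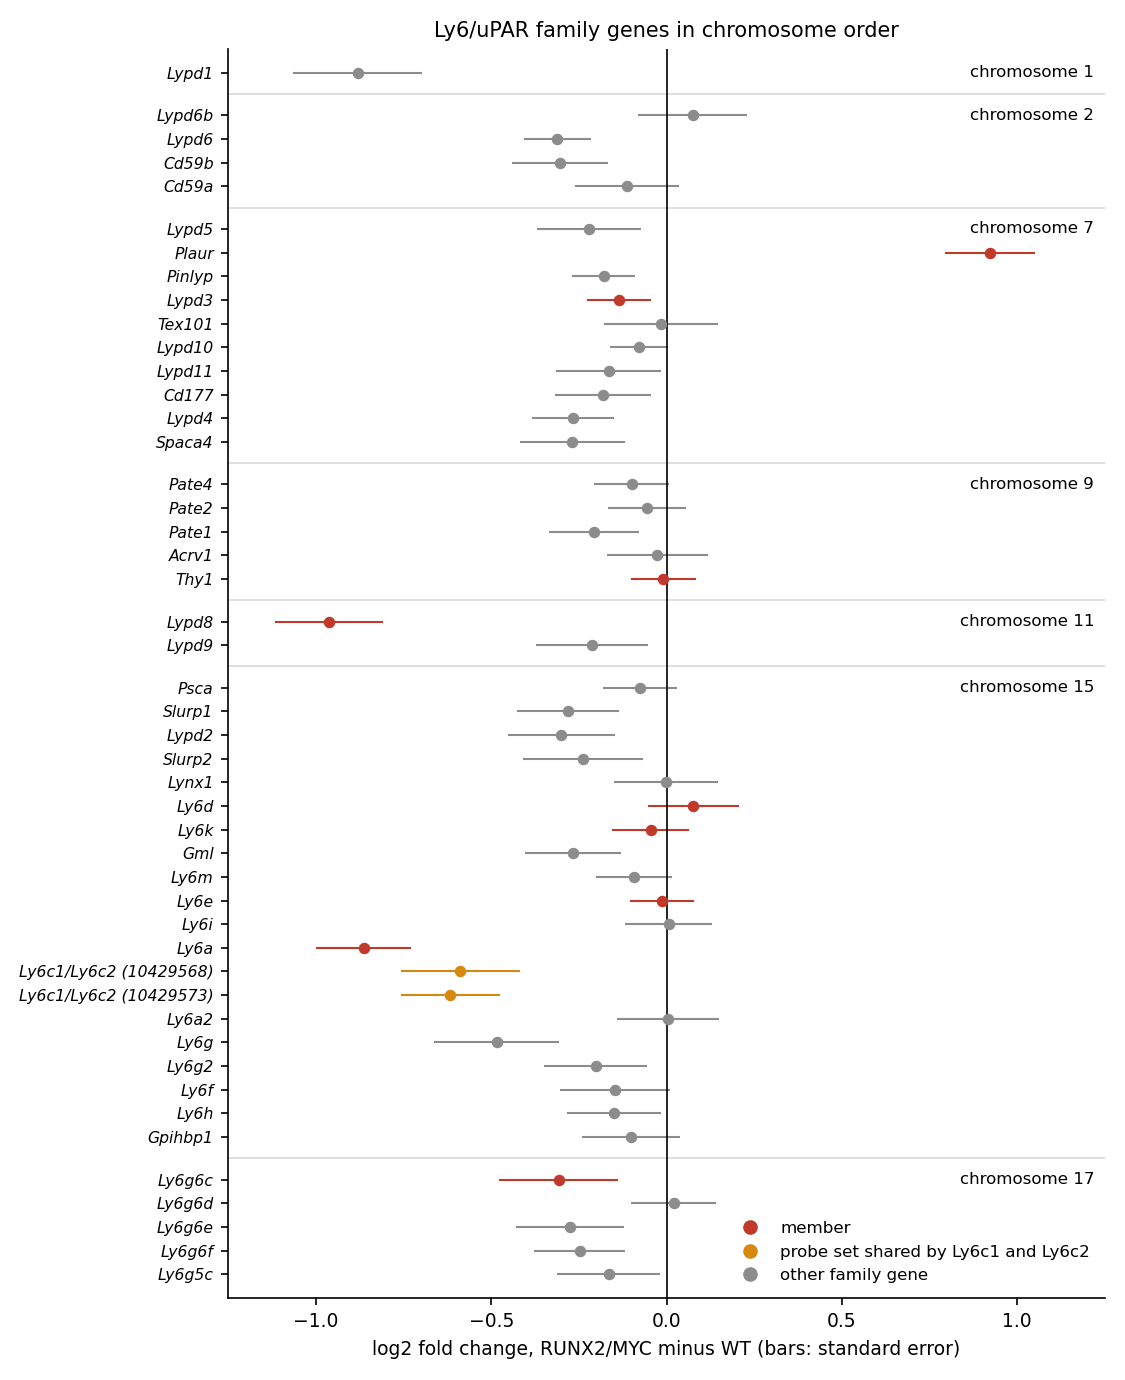
Log2 fold change, RUNX2/MYC minus WT (x axis), of the family genes measured on an array probe set, in chromosome order from top to bottom, with Thy1 among the members. Points are limma estimates and bars their standard errors. Plaur (0.92) is far to the right among neighbours near or left of 0, and Ly6a (-0.86) and the shared Ly6c1 and Ly6c2 probe sets (-0.59 and -0.62) are left of Ly6i and Ly6a2.

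The plasminogen system holds the ligand, inhibitors and surface partners of Plaur. Limma called 0 of 22 measured genes (of 26 listed) in either direction, while 1 (higher) and 4 (lower) had an unadjusted p under 0.05, beside 12.0% and 9.27% of all probe sets. The methods' test with q values called 0 higher and 1 lower. The median log2 fold change was -0.15, with 5 positive and 17 negative. Plau, the gene of urokinase and named here as the ligand after its values were seen, had log2 signals of 7.29, 7.60 and 7.32 in RUNX2/MYC and 7.59, 7.44 and 7.64 in WT, a log2 fold change of -0.15 (limma adjusted p = 0.429). The groups overlapped for Plau. Anxa2, which forms a surface receptor for plasminogen and its tissue activator, had 10.98, 11.55 and 11.18 in RUNX2/MYC and 11.78, 11.73 and 11.71 in WT, and the log2 fold change was -0.50 (standard error 0.15, limma adjusted p = 0.143). Serpinb2, an inhibitor of urokinase, had 6.98, 6.78 and 6.64 in RUNX2/MYC and 7.18, 7.15 and 7.20 in WT, and the log2 fold change was -0.37 (standard error 0.11, limma adjusted p = 0.135). RUNX2/MYC arrays were all below WT arrays for both Anxa2 and Serpinb2, as for 10.1% of all probe sets. Serpinb2 was below the array median on every array, so little can be read from its values. Of the 22 measured genes, 13 had a signal above the array median on at least 3 arrays.

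Genes listed for making, attaching, remodelling or cleaving the GPI anchor had higher signals on balance. Of 30 measured genes, 24 lay above 0 and 6 below on the log2 scale, and the median was 0.20. Groups of arrays did not overlap for 11 (higher) and 4 (lower), beside 14.3% and 10.1% of all probe sets. An unadjusted p under 0.05 was reached by 8 (higher) and 0 (lower), beside 12.0% and 9.27% of all probe sets. The methods' test with q values called 3 higher and 0 lower, beside 3.41% and 0.695% of all probe sets. Limma called 1 higher and 0 lower at an adjusted p under 0.05, beside 1.68% and 0.127% of all probe sets. Pigs, a subunit of the enzyme complex that attaches the anchor to proteins, was the gene called, with 9.55, 9.49 and 9.53 in RUNX2/MYC and 9.09, 9.10 and 9.07 in WT and a log2 fold change of 0.43 (standard error 0.077, limma adjusted p = 0.047). Its arrays hardly varied within a group. After centring of the arrays on the 75th percentile, 0 genes of the list were called, and without a single array the count was 2 when RUNX2/MYC replicate 1 was left out and 0 for each of the other 5. Of the 30, 28 passed the filter on dim probe sets, and bright probe sets in general had positive medians.

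Other GPI-anchored surface proteins of blood cells were divided. Limma called 0 of 26 measured genes (of 32 listed), while 4 (higher) and 5 (lower) had an unadjusted p under 0.05, against shares of 12.0% and 9.27% over all probe sets. The methods' test with q values called 0, and the median was -0.11. Gfra1, the co-receptor of a glial neurotrophic factor, had 7.49, 7.19 and 7.27 in RUNX2/MYC and 8.82, 8.81 and 7.51 in WT. WT replicate 3 was near the RUNX2/MYC level, and the log2 fold change was -1.06 (standard error 0.35, limma adjusted p = 0.169). Bst1 (CD157), a surface enzyme of bone marrow stroma and early lymphoid cells, had 8.18, 8.49 and 8.31 in RUNX2/MYC and 7.76, 7.70 and 7.86 in WT, and the log2 fold change was 0.55 (standard error 0.11, limma adjusted p = 0.059). All RUNX2/MYC arrays of Bst1 were above those of WT.

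Interferon-stimulated genes, listed because interferons raise Ly6a, Ly6c1 and Ly6e, had lower signals on balance. Of 31 measured (of 36 listed), 27 had a negative log2 fold change, the median was -0.27, and 16 had all RUNX2/MYC arrays below all WT arrays, as did 10.1% of all probe sets. Limma called 0, while 1 (higher) and 13 (lower) had an unadjusted p under 0.05, where all probe sets gave 12.0% and 9.27%. The methods' test with q values called 2 lower, and 0.695% of all probe sets. With quantile or cyclic loess normalization 5 were called lower. Cxcl10, a chemokine that draws activated T cells, had 9.10, 8.91 and 9.21 in RUNX2/MYC and 10.33, 9.51 and 9.86 in WT, and the log2 fold change was -0.82 (standard error 0.21, limma adjusted p = 0.101). Ifit1, a cytoplasmic protein that binds viral RNA, had 8.31, 8.52 and 8.62 in RUNX2/MYC and 9.13, 9.03 and 9.49 in WT, and the log2 fold change was -0.74 (standard error 0.15, limma adjusted p = 0.062). Both were lower on every RUNX2/MYC array than on any WT array, and the part of interferon in the values of Ly6a, the Ly6c probe sets or Ly6e was not tested.

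**Figure D3:**
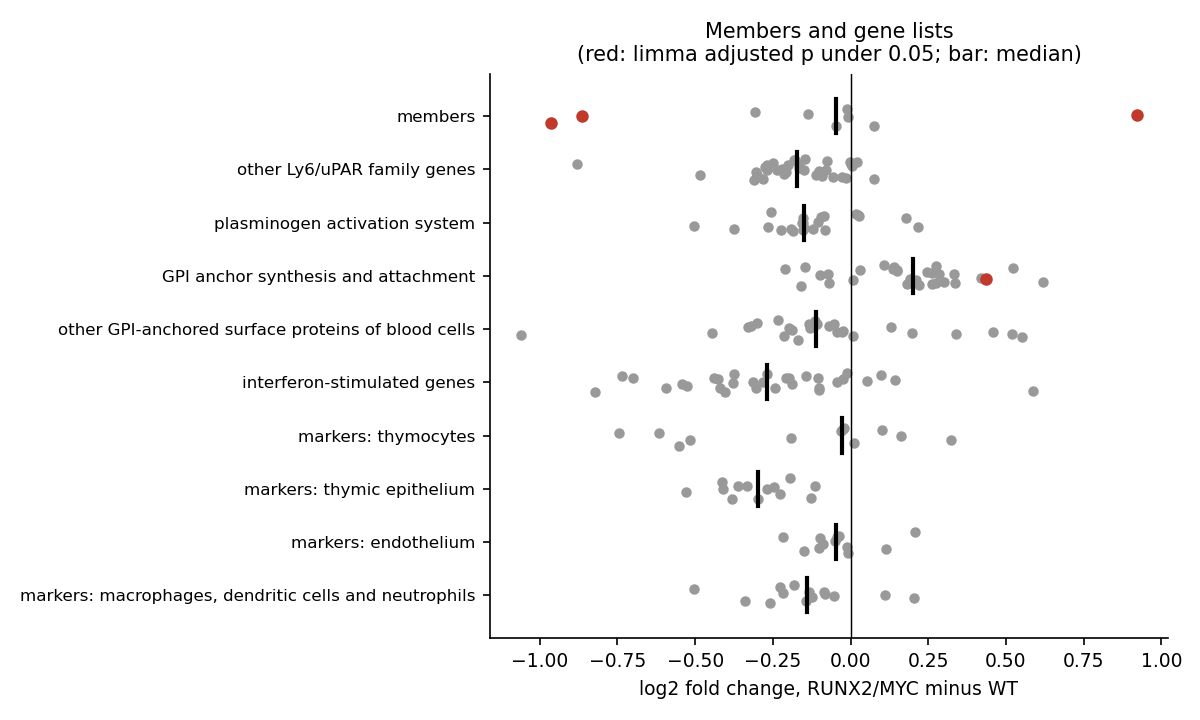
Log2 fold change, RUNX2/MYC minus WT (x axis), of each gene of the members, the 5 gene lists and 4 marker lists (y axis, 1 line a list). Each point is 1 gene, red where the limma adjusted p is under 0.05, and the vertical bar is the median of the list. Members have a median of -0.045 with Plaur, Ly6a and Lypd8 far from it, the GPI anchor list has a median of 0.20 and the interferon list one of -0.27.

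Plaur, Ly6a and Lypd8 had the same sign under each of the 16 alternatives run, which the choice of members and their separate groups of arrays largely fix. In 5 of the 16 (both forms of the methods' test, the filter on dim probe sets, the replicate block and the mean over a gene's probe sets) the estimate cannot differ from that of the fit as reported. Apart from the fits without 1 array, Plaur was between 0.83 and 1.01, and with them it was past the threshold in 10 of the 15 that hold a test. Ly6a was between -1.0 and -0.76 and Lypd8 between -1.06 and -0.88 under the other settings, and they were past the threshold in 9 and 8 of 15. The methods' test called Plaur and Ly6a but not Lypd8 with q values, and 0 of the 3 with Benjamini-Hochberg adjustment.

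**Figure D4:**
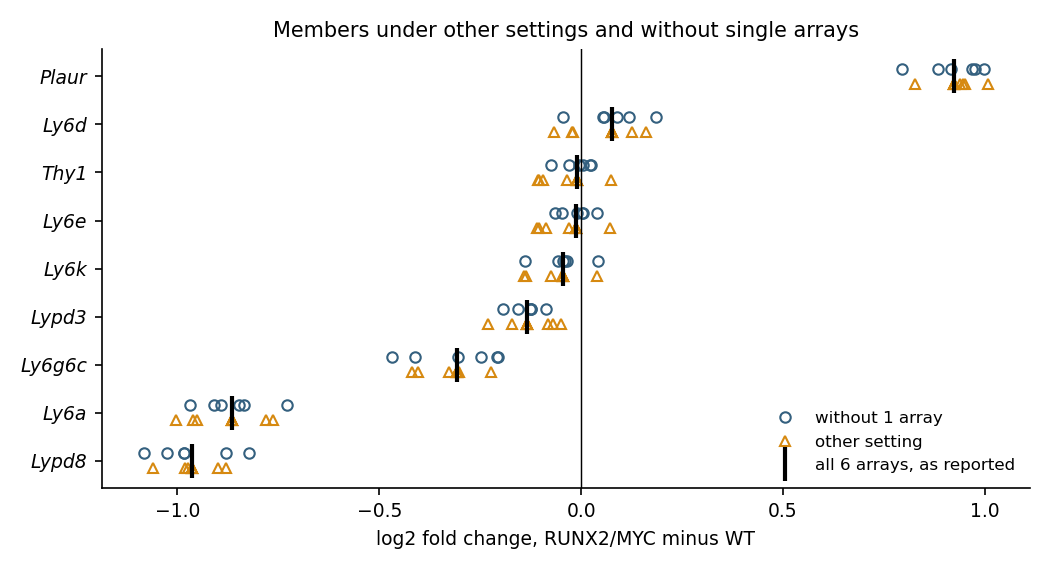
Log2 fold change, RUNX2/MYC minus WT (x axis), of the 9 measured members (y axis) in the limma fit of all 6 arrays (black bar), without 1 array (open circles) and under other normalizations, tests or weights (open triangles). Plaur stays between 0.79 and 1.01, and Ly6a and Lypd8 stay at or below -0.73, while Ly6d, Ly6e, Ly6k and Thy1 lie on both sides of 0.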

How the data were processed

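RNA of whole thymus from 3 RUNX2/MYC and 3 WT mice was hybridised to Affymetrix MoGene-1 arrays. The deposited values are log2 signals, which the authors made by robust multichip averaging (RMA). The submitters' processing notes name RMA and Affymetrix Expression Console 1.4, and the study's methods name Partek software and a correction for probe GC content ahead of the background step. As a method, RMA corrects background, sets arrays to a common distribution and summarises probes, so absolute levels of different probe sets are not comparable. The deposited arrays did not share a common distribution. Their medians ran from 7.31 to 7.49 and their 75th percentiles from 8.85 (WT replicate 1) to 9.04 (RUNX2/MYC replicate 2). The platform annotation pairs 12146 probe sets with no gene symbol, 1621 with several and 21789 with 1. The numbers of Ly6a's and Runx2's probe sets were found by gene symbol in a supplementary table of the study. The transcript accession listed there for Ly6a belonged to Ly6a in RefSeq, and no expression value was taken from that table. Gene order came from RefSeq, assembly GRCm38.p6, and the genome build of the array files is not given in the sources used here.

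Limma 3.58.1 in R 4.3.3 (lmFit, eBayes) was used to set RUNX2/MYC against WT, p-values of all 35556 probe sets were adjusted together (Benjamini-Hochberg), and the threshold was 0.05. Arrays are labelled as separate biological replicates, and their number limits the precision. The members and gene lists were chosen with earlier results of these data known. Lists could share genes. Gpihbp1 is a family gene and an endothelial marker, Bst2 is in the GPI-anchored and interferon lists, and Itgam in the plasminogen and myeloid lists. Named were all members, of each other list the genes called (at most 4) or, with none called, the 2 with the largest absolute log2 fold change, and the 3 genes closest in pattern to Ly6a, Plaur and Ly6e. Alternatives were the ANOVA of the methods with q values or Benjamini-Hochberg adjustment, quantile, cyclic loess, median and 75th percentile normalization, a filter on dim probe sets (above the array median on at least 3 arrays), array weights, a replicate block, each array left out and the mean over a gene's probe sets.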

Additional observations from a re-analysis of the deposited data

How the results depend on the processing

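Over all probe sets, 596 were called higher and 45 lower. The ANOVA with q values called 1213 higher and 247 lower, and with Benjamini-Hochberg adjustment 162 higher. Quantile normalization gave 98 lower, cyclic loess 457 higher and 124 lower, median centring 915 higher, and 75th percentile centring 209 higher and 45 lower. The filter on dim probe sets gave 1231 higher and 143 lower, array weights 5766 higher and 7318 lower, and the replicate block 1654 higher and 763 lower. Array weights called far more probe sets than any other setting, so calls with them are not read as a trait of the lists below. Without 1 array the range was 3 to 872 higher and 0 to 718 lower, with the high values without RUNX2/MYC replicate 1.

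Of the members, the ANOVA with Benjamini-Hochberg adjustment called 0 higher and 0 lower, and with q values 1 lower. Without 1 array 0 to 1 were called higher and 0 to 2 lower. Of the other family genes, 1 was called lower with quantile, cyclic loess, the dim filter or the replicate block, 16 with array weights, and 0 to 1 without 1 array (0 to 0 higher). In the plasminogen list, array weights gave 1 higher and 5 lower, the ANOVA with q values 1 lower, and the fits without 1 array 0 to 0 in both directions.

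In the GPI anchor list, called higher were 3 by the ANOVA with q values, the dim filter or the replicate block, 2 with median centring, 0 with 75th percentile centring and 15 with array weights (1 lower), and 0 to 2 without 1 array (0 to 0 lower). Of the other GPI-anchored genes, called higher were 1 with quantile normalization or the dim filter, 4 with array weights and 2 with the replicate block, and called lower were 1 with quantile or cyclic loess and 7 with array weights, against 0 to 2 higher and 0 to 1 lower without 1 array. Interferon-stimulated genes called lower numbered 2 by the ANOVA with q values, 5 with quantile, cyclic loess, the dim filter or the replicate block, 1 with 75th percentile centring and 7 with array weights. Called higher there was 1 with array weights or the replicate block, and 0 to 0 in both directions without 1 array. The cause of these changes was not tested.

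Same-numbered arrays had correlated deviations from their group means for numbers 1 (0.50) and 3 (0.61) and not for number 2 (-0.15), where RUNX2/MYC replicate 2 correlated best with WT replicate 3 (0.21). Deviations from a group mean cancel within the group, so these correlations depend on each other. They cannot decide whether the numbers pair the arrays. The replicate block, which changed no member's call, is given only as an alternative. Of the 15 alternatives with a test, Ly6g6c (-0.31) was past the threshold with array weights alone. That setting called 7318 of all 35556 probe sets lower, against 45 in the fit as reported. Little is read from this call of Ly6g6c. All 9 measured members passed the filter on dim probe sets, Plaur through the 3 RUNX2/MYC arrays alone, so its call under that filter is no independent support.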
